A study of Mus musculus with 12 samples.

Results

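The core and general pluripotency genes are genes that mouse embryonic stem cells use in both the naive and the primed state. They were chosen by name as Pou5f1, Sox2, Sall4, Lin28a, Utf1, Dppa2, Dppa4, Dppa5a, Tdgf1 and Gdf3, and all 10 had a row among the 23336 gene symbols of the count table. The counts came from 12 RNA-seq libraries in 6 groups of 2. A female line labelled RlimKO, the female wild-type line Pgk12.1 and the male wild-type line E14 were each sampled after differentiation and before it. Undifferentiated cells were grown in standard stem cell medium with LIF, the cytokine that holds mouse stem cells in self-renewal. Differentiated cells had spent 3 days as embryoid bodies without LIF and 6 further days in culture under 7.5% oxygen. All 6 groups carry the strain label C57BL/6. Each genotype is 1 line, so the effects of sex, Rlim genotype and line cannot be told apart between lines, and the labels do not say whether the 2 replicates of a group were separate cultures.

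Pluripotency rests on a small set of transcription factors that bind together at shared enhancers and keep each other's genes active. Pou5f1 (Oct4) and Sox2 bind side by side as a pair, and Sall4 acts with them. Lin28a is an RNA-binding protein that blocks the maturation of let-7 microRNAs. Utf1, Dppa2 and Dppa4 are chromatin-associated proteins of pluripotent cells, and Dppa5a is a small protein with an RNA-binding KH domain. Tdgf1 (Cripto) is a cell-surface co-receptor for Nodal, and Gdf3 is a secreted ligand of the TGF-beta family. When stem cells leave pluripotency, this set is switched off, while some members are kept for a time or used again in other tissues, such as Sox2 in neural progenitors and Lin28a in early embryonic tissues.

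The libraries held 2011919 to 5401940 counts in genes. A single ribosomal gene, Rn45s, took 6.36% of them in replicate 2 of the differentiated male cells and 67.7% in replicate 1 of the differentiated RlimKO-labelled cells, the lowest and highest shares. Levels are therefore given as CPM, counts per 1000000 of a library size scaled by TMM, which trims extreme genes. After this scaling, 3 counts stood for 0.322 to 1.75 CPM. The differentiated male replicates stood apart from each other, with a chi-square of their counts per degree of freedom of 24.8, against 1.85 to 2.32 within the other 5 groups. Rlim itself had 290.1 and 299 CPM in differentiated RlimKO-labelled cells, 258 and 266 CPM in differentiated WT female cells, 160.0 and 150.0 CPM in undifferentiated RlimKO-labelled cells and 267 and 282 CPM in undifferentiated WT female cells. The level in the libraries labelled RlimKO was lower before differentiation (log2 fold change -0.82 ± 0.15, adjusted p = 0.0437) and passed no test after it (0.17 ± 0.14, adjusted p = 0.654). Where in the gene the deletion lies is not given in the sources used here, so a gene-level count does not settle the label, and the line is called RlimKO-labelled throughout. The Y-linked gene Eif2s3y was at 16.8 to 25.0 CPM in the male libraries and at most 0.426 CPM in the female ones.

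All 10 genes fell on differentiation in WT female cells and in WT male cells, and 9 of 10 fell in RlimKO-labelled cells, the exception being Lin28a. In the same comparisons 21.6% of the 12814 tested genes fell in RlimKO-labelled cells, 22.2% in WT female cells and 25.4% in WT male cells. The median log2 fold change of the 10 genes was -3.97 in RlimKO-labelled, -3.18 in WT female and -4.16 in WT male cells, against 0.096, 0.087 and 0.052 for all tested genes. A fall or rise means an adjusted p below 0.05 (edgeR quasi-likelihood test, Benjamini-Hochberg over all tested genes), and fold changes are log2 values ± SE from 2 libraries a group. In no line did a differentiated library overlap an undifferentiated one for any of the 10 genes. All 10 passed the filter on low counts, but Utf1 and Gdf3 would not have passed it on their differentiated libraries alone.

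The 10 genes were shut off to very different extents. The level that remained, taken as the differentiated mean over the undifferentiated mean, had a median over the 10 genes of 5.68% in RlimKO-labelled, 10.95% in WT female and 5.30% in WT male cells. It was below 10% for 7 genes in RlimKO-labelled cells, 4 in WT female cells and 8 in WT male cells. Sall4 and Lin28a stood apart with 33.3% to 65.8% remaining, while the other 8 kept 1.93% to 12.4% in RlimKO-labelled, 4.70% to 21.1% in WT female and 1.19% to 6.78% in WT male cells. Sall4 and Lin28a together made up 69.1% and 68.9% of the summed CPM of the 10 genes in differentiated RlimKO-labelled cells, 42.9% and 40.7% in differentiated WT female cells and 79.0% and 72.0% in differentiated WT male cells. Before differentiation their share was 17.9% to 25.6% in all 6 libraries. In these bulk samples, fewer pluripotent cells and less RNA per cell cannot be told apart.

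**Figure D1:**
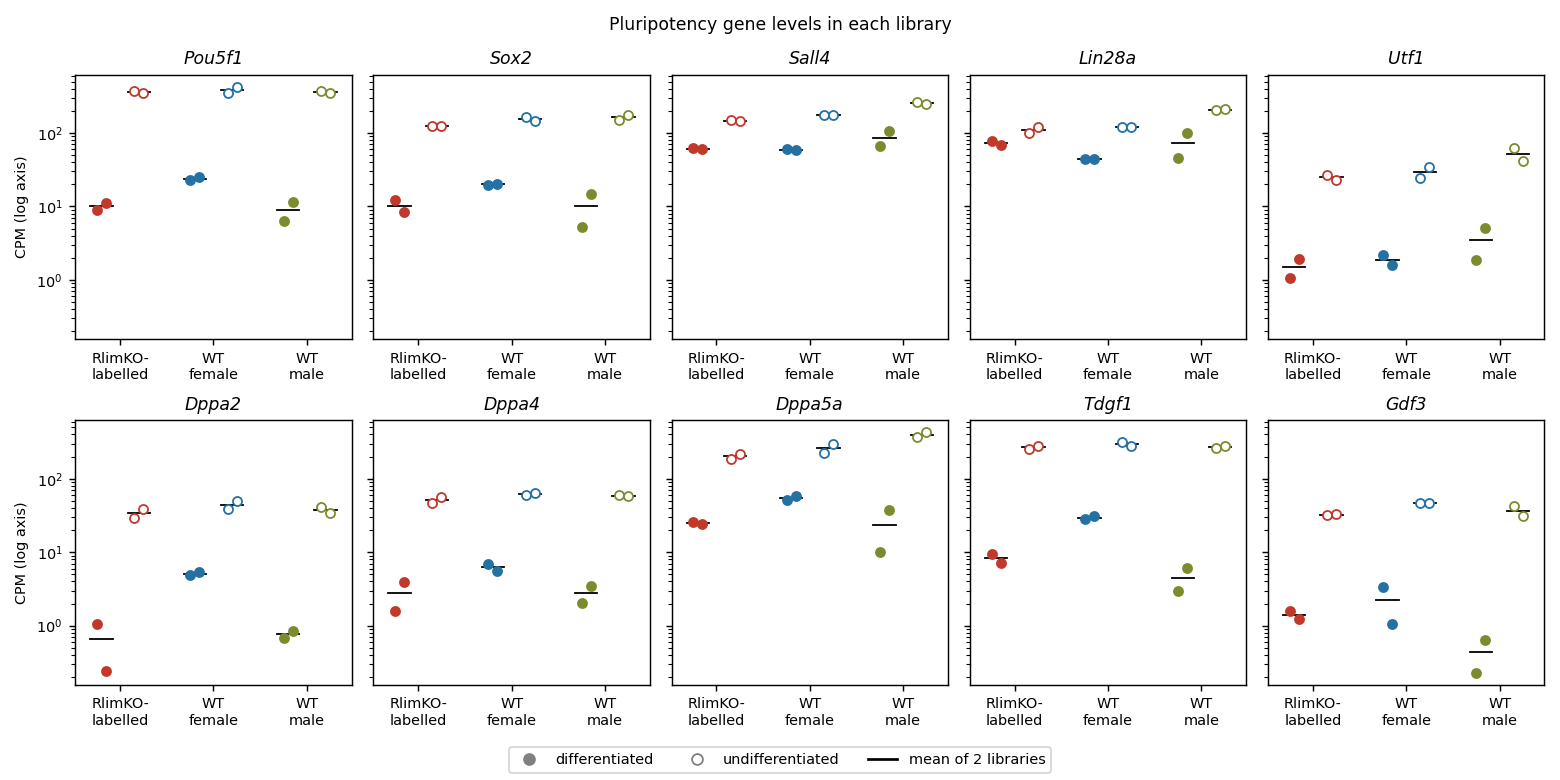
Level of each of the 10 genes in every library, in CPM on a log axis, with differentiated libraries to the left of undifferentiated ones in each line, 1 dot a library and dashes at means of 2. All 10 genes are lower in the differentiated libraries of each line, and the gap is smallest for Sall4 and Lin28a.

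Among the transcription factors, Pou5f1 and Sox2 were strongly reduced and Sall4 was reduced to a lesser extent. Pou5f1 lies at chr17:35506018-35510772 on the plus strand (GRCm38/mm10, as all gene coordinates here). It had 9.03 and 11.0 CPM in differentiated RlimKO-labelled cells, 22.7 and 24.9 CPM in differentiated WT female cells and 6.43 and 11.4 CPM in differentiated WT male cells, against 348 to 372 CPM, 347 to 426 CPM and 347 to 371 CPM in the undifferentiated cells of the same lines. The differentiated WT female libraries were the highest of the 6 differentiated ones. The log2 fold change of Pou5f1 was -5.13 ± 0.24 in RlimKO-labelled (adjusted p = 1.77e-09), -4.02 ± 0.21 in WT female (adjusted p = 4.18e-09) and -5.26 ± 0.22 in WT male cells (adjusted p = 5.31e-10), and 2.78%, 6.16% and 2.48% of its level remained. An antisense gene, Gm19553, overlaps Pou5f1, and reads of the 2 strands cannot be separated as the libraries are described.

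Sox2, at chr3:34650405-34652461 on the plus strand, had 12.2 and 8.29 CPM in differentiated RlimKO-labelled cells, 19.5 and 20.4 CPM in differentiated WT female cells and 5.28 and 14.8 CPM in differentiated WT male cells. The undifferentiated libraries held 124 and 125 CPM, 163 and 146 CPM, and 152 and 175 CPM in that order of lines. Sox2 had log2 fold changes of -3.67 ± 0.33 in RlimKO-labelled, -2.95 ± 0.29 in WT female and -3.92 ± 0.30 in WT male cells, leaving 8.23%, 12.9% and 6.15%. Sox2 lies inside the noncoding gene Sox2ot on the same strand, whose own row held 0 to 8 counts a library. Neural progenitors also use Sox2, and of 13 neural progenitor genes only 4 passed the filter, 2 of them only through the undifferentiated libraries. The 13 genes summed to 42.5 to 45.4 CPM in differentiated RlimKO-labelled, 122 to 134 CPM in differentiated WT female and 49.0 to 83.1 CPM in differentiated WT male cells, against 55.3 to 75.3 CPM in undifferentiated libraries. Nes, an intermediate filament gene, had 39.3 and 40.5 CPM in differentiated RlimKO-labelled cells, 111 and 122 CPM in differentiated WT female cells and 76.7 and 45.7 CPM in differentiated WT male cells, so it too was highest in the WT female libraries. Nes, at 8.58 to 24.5 CPM in undifferentiated libraries, made up most of the summed level in the differentiated ones. The other tested genes of the list went the other way. Tubb3 had 10.3 and 9.80 CPM in differentiated WT female cells, against 37.8 and 42.9 CPM before, and was lower in the other lines too. Pax6 and Sox1, which passed only through undifferentiated libraries, were at most 0.265 and 0 CPM after differentiation. The part of neural cells in the remaining Sox2 was not tested.

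Sall4, a zinc finger factor at chr2:168748332-168767943 on the minus strand, kept about the same differentiated level in both female lines. It had 61.6 and 59.7 CPM in differentiated RlimKO-labelled cells, 60.8 and 57.8 CPM in differentiated WT female cells and 66.4 and 104.9 CPM in differentiated WT male cells, against 150.0 and 144 CPM, 176 and 173 CPM, and 265 and 249.5 CPM in the undifferentiated cells. Its log2 fold change was -1.28 ± 0.19 in RlimKO-labelled (adjusted p = 7.79e-05), -1.56 ± 0.19 in WT female (adjusted p = 9.62e-06) and -1.57 ± 0.18 in WT male cells (adjusted p = 4.43e-06). Of its undifferentiated level, 41.3%, 34.0% and 33.3% remained. An antisense transcript, Gm14261, overlaps Sall4, with the same doubt about strand as for Pou5f1.

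Lin28a, at chr4:134003330-134018841 on the minus strand, kept the largest share of its level among the 10 genes in both female lines, and in WT male cells its share was close to that of Sall4. Its levels were 77.6 and 67.5 CPM in differentiated RlimKO-labelled cells, 43.6 and 44.0 CPM in differentiated WT female cells and 45.0 and 99.7 CPM in differentiated WT male cells. Undifferentiated cells held 99.8 and 120.6 CPM, 121 and 120.1 CPM, and 205 and 209 CPM. An antisense gene, Gm13061, overlaps Lin28a, with the same doubt about strand as for Pou5f1. In RlimKO-labelled cells 65.8% remained, and the log2 fold change of -0.62 ± 0.27 did not pass the test (adjusted p = 0.0706). In WT female cells 36.3% remained (log2 fold change -1.46 ± 0.27, adjusted p = 0.000436) and in WT male cells 34.9% (-1.50 ± 0.25, adjusted p = 0.000175). By male replicate its share was 21.7% and 48.1%, against 25.8% and 40.8% for Sall4, so the order of the 2 genes differed between the replicates. The difference between the changes in the 2 female lines was itself not past the threshold in the fit of all 12 libraries (0.85 ± 0.38, adjusted p = 0.476). It passed without differentiated male replicate 1 (0.77, adjusted p = 0.0165) or replicate 2 (0.80, adjusted p = 0.0121), with only the libraries compared (0.76, adjusted p = 0.0123) and without both libraries of extreme Rn45s share (0.75, adjusted p = 0.0451). The call of a fall in RlimKO-labelled cells also depended on the settings: without Rn45s and Lars2 in the counts, for example, the log2 fold change was -0.72 with an adjusted p of 0.037. It also passed without differentiated male replicate 1 (-0.68, adjusted p = 4.41e-05) or replicate 2 (-0.66, adjusted p = 6.69e-05), whose spread enters the shared estimate, and without undifferentiated male replicate 1 (adjusted p = 0.0476) or differentiated WT female replicate 2 (adjusted p = 0.0474).

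Around Lin28a, 9 of 10 genes linked to let-7 were tested, and in each line 2 fell and 5 rose, with medians of 0.74, 0.48 and 0.60 in RlimKO-labelled, WT female and WT male cells. Over all tested genes 26.4% rose in RlimKO-labelled, 26.5% in WT female and 28.7% in WT male cells, beside the 21.6%, 22.2% and 25.4% that fell. Hmga2, a chromatin protein gene and a known let-7 target, rose in all 3 lines, with 218 and 184 CPM in differentiated RlimKO-labelled cells, 163 and 185 CPM in differentiated WT female cells and 209.6 and 93.3 CPM in differentiated WT male cells. It stood at 0.953 to 8.82 CPM in the 6 undifferentiated libraries. Igf2bp3, an RNA-binding protein gene of the same list, had 104 to 141 CPM in differentiated and 60.9 to 75.9 CPM in undifferentiated libraries.

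Of the chromatin-associated genes, Dppa2 and Dppa4 are neighbours on chromosome 16, at chr16:48303908-48319723 and chr16:48283733-48294237 on the plus strand, with a gap of 9670 bases. Dppa2 had 1.06 and 0.244 CPM in differentiated RlimKO-labelled cells, 4.93 and 5.30 CPM in differentiated WT female cells and 0.689 and 0.859 CPM in differentiated WT male cells, against 29.2 and 38.4 CPM, 38.3 and 49.1 CPM, and 41.2 and 34.6 CPM in the undifferentiated cells. The WT female libraries were again the highest after differentiation. In RlimKO-labelled cells the differentiated libraries held 3 counts in all, against 140 in the undifferentiated ones, a ratio of 1.45% after scaling with an exact 95% interval for counting error of 0.296% to 4.34%. The log2 fold change of Dppa2 was -3.09 ± 0.30 in WT female (adjusted p = 1.14e-06) and -5.50 ± 0.36 in WT male cells (adjusted p = 1.92e-08), with 11.7% and 2.04% of the level remaining.

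Dppa4 had 1.59 and 3.90 CPM in differentiated RlimKO-labelled cells, 6.91 and 5.56 CPM in differentiated WT female cells and 2.07 and 3.44 CPM in differentiated WT male cells, against 46.7 to 62.9 CPM in the undifferentiated libraries. Its log2 fold change was -4.05 ± 0.32 in RlimKO-labelled, -3.27 ± 0.27 in WT female and -4.32 ± 0.28 in WT male cells. Utf1, at chr7:139943789-139945112 on the plus strand, had 1.06 to 5.16 CPM in differentiated libraries and 23.0 to 61.7 CPM in undifferentiated ones. Its mean remaining share was 6.04% in RlimKO-labelled, 6.43% in WT female and 6.78% in WT male cells, and the male replicates kept 3.56% and 10.0%. Its log2 fold change was -3.89 ± 0.50, -3.91 ± 0.44 and -3.73 ± 0.37 in the same lines.

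Dppa5a, at chr9:78367052-78368177 on the minus strand, had the widest spread between replicates in differentiated male cells. It had 26.0 and 23.9 CPM in differentiated RlimKO-labelled cells, 51.1 and 58.6 CPM in differentiated WT female cells and 10.1 and 37.3 CPM in differentiated WT male cells, against 186 and 218 CPM, 221 and 299 CPM, and 370.3 and 427 CPM in the undifferentiated cells. Dppa5a had log2 fold changes of -3.03 ± 0.39 in RlimKO-labelled, -2.25 ± 0.35 in WT female and -3.99 ± 0.37 in WT male cells, and 12.4%, 21.1% and 5.94% of its level remained. In the differentiated male pair all 10 genes were higher in replicate 2, by 1.25-fold for Dppa2 to 3.69-fold for Dppa5a. That replicate also has the lowest Rn45s share. Its sample title is numbered Ingolf8, while replicate 1 is Ingolf53 and the other groups lie between Ingolf37 and Ingolf52. The part of the Rn45s share or of the numbering in the gap was not tested. Dppa2, Dppa4, Dppa5a and Tdgf1 have near-identical copies, mostly pseudogenes, elsewhere in the genome (at least 95% identity over at least 250 bases), so reads could have been split between gene and copy, and their counts carry that doubt.

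The 2 genes of the Nodal and TGF-beta pathway kept their smallest share in male cells. Tdgf1, at chr9:110939603-110946158 on the minus strand, had 9.56 and 7.07 CPM in differentiated RlimKO-labelled cells, 28.2 and 30.7 CPM in differentiated WT female cells and 2.98 and 6.02 CPM in differentiated WT male cells, against 256 and 279.6 CPM, 311 and 280.3 CPM, and 265 and 279 CPM in the undifferentiated cells. The libraries of the 3 lines did not overlap after differentiation, with WT female cells the highest and WT male cells the lowest. Its log2 fold change was -5.06 ± 0.24 in RlimKO-labelled (adjusted p = 1.88e-09), -3.33 ± 0.20 in WT female (adjusted p = 1.4e-08) and -5.80 ± 0.23 in WT male cells (adjusted p = 3.48e-10), leaving 3.11%, 9.96% and 1.65%.

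Gdf3, at chr6:122605403-122610087 on the minus strand, had 1.59 and 1.22 CPM in differentiated RlimKO-labelled cells, 3.35 and 1.06 CPM in differentiated WT female cells and 0.230 and 0.645 CPM in differentiated WT male cells, against 31.5 to 47.3 CPM in the undifferentiated libraries. Gdf3 had log2 fold changes of -4.56 ± 0.45 in RlimKO-labelled, -4.31 ± 0.37 in WT female and -6.09 ± 0.44 in WT male cells. The naive factor genes Dppa3 and Nanog lie 16322 and 97401 bases from it on the same chromosome.

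Of the 11 tested genes for Nodal ligands, receptors and targets, 4 fell in each line and 7 rose in RlimKO-labelled, 3 in WT female and 5 in WT male cells, with medians of 0.85, 0.32 and 0.37, against 26.4%, 26.5% and 28.7% of all tested genes that rose and 21.6%, 22.2% and 25.4% that fell. Lefty2, a secreted Nodal inhibitor that Nodal signalling itself induces, had 5.84 and 4.63 CPM in differentiated RlimKO-labelled cells, 23.5 and 20.9 CPM in differentiated WT female cells and 2.76 and 1.18 CPM in differentiated WT male cells. Its order of lines after differentiation was that of Tdgf1. Lefty1, also among the genes that fell, passed the filter only through the undifferentiated libraries. The fall of Lefty2 differed between RlimKO-labelled and WT female cells (-2.37 ± 0.34, adjusted p = 0.0145) and between WT female and WT male cells (1.92 ± 0.36, adjusted p = 0.0178). Lefty2 was also higher in both female lines than in WT male cells before differentiation (adjusted p = 4.96e-05 for RlimKO-labelled and 0.000284 for WT female cells), with 239.9 and 237 CPM in RlimKO-labelled, 179.6 and 225 CPM in WT female and 57.9 and 63.3 CPM in WT male cells.

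**Figure D2:**
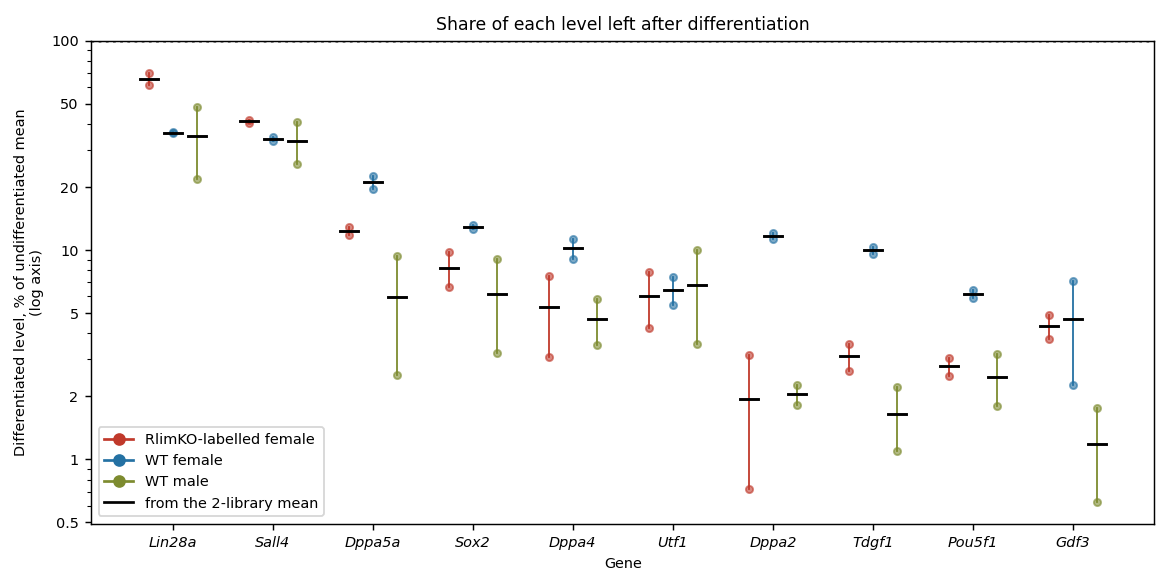
Share of the undifferentiated level that remained after differentiation, in percent on a log axis, for each of the 10 genes in the RlimKO-labelled, WT female and WT male lines, with dots for single differentiated libraries and dashes for their mean. Lin28a and Sall4 keep 33.3% to 65.8%, and the WT female line keeps the largest share of Pou5f1, Sox2, Dppa2, Dppa4, Dppa5a and Tdgf1.

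RefSeq (GRCm38.p6) promoter windows, 250 bases before to 50 after the start, were matched for 5 of the 10 genes. Windows are shown for Pou5f1 and Tdgf1, which fell most steeply among these in RlimKO-labelled and WT male cells. Sox2 is shown as the partner of Pou5f1, and Lin28a as the gene that kept most. In WT female cells Utf1, whose window is not shown, fell more than Tdgf1 (log2 fold change -3.91 against -3.33). Capitals mark matches on either strand to GGGCGG, the GC box, to AGGTCA, a nuclear receptor half-site, to ATGCAAA, an octamer-like motif, and to CATTGT, a Sox-type motif.
Pou5f1, chr17:35505782-35506081, plus strand: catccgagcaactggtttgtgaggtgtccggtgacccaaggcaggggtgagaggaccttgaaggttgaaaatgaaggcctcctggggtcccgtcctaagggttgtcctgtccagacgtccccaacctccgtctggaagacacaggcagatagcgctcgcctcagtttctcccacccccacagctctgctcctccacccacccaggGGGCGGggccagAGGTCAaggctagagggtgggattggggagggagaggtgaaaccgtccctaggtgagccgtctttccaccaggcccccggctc
Sox2, chr3:34649745-34650044, plus strand: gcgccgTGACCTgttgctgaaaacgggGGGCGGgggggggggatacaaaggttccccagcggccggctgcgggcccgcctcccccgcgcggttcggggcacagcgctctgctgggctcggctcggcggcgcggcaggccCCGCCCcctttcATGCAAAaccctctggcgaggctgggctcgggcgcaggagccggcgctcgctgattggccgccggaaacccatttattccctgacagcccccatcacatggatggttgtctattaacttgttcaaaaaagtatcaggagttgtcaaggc
Tdgf1, chr9:110946109-110946408, minus strand: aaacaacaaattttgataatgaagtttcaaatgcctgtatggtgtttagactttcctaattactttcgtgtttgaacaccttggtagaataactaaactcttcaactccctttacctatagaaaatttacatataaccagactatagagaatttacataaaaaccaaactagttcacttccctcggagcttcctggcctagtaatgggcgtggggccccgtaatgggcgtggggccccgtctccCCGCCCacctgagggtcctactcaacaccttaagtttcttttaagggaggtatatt
Lin28a, chr4:134018767-134019066, minus strand: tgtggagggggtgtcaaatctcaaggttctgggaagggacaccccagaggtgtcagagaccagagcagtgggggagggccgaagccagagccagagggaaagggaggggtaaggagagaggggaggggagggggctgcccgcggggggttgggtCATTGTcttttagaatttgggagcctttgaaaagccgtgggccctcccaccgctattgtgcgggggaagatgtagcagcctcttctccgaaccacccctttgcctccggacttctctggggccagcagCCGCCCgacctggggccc
The GC box was present in all 4 windows shown, and 35.7% of the 32851 promoter windows in the table held it. AGGTCA was in the Pou5f1 and Sox2 windows (16.3% of all windows), ATGCAAA in the Sox2 window (4.63%) and CATTGT in the Lin28a window (12.6%). The table holds a second Pou5f1 window, chr17:35508557-35508856, with 1 match to CATTGT and 0 to the other 3 motifs. The matches are letters in the sequence and do not show that a factor binds there.

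Whether the size of the fall differed between lines was tested as a difference of changes. WT female cells lost less than WT male cells for 3 genes, where 0.882% of tested genes did so: Tdgf1 (2.47 ± 0.30, adjusted p = 0.000984), Dppa2 (2.41 ± 0.49, adjusted p = 0.0271) and Pou5f1 (1.23 ± 0.29, adjusted p = 0.0496). RlimKO-labelled cells lost more than WT female cells for Tdgf1 alone (-1.73 ± 0.31, adjusted p = 0.0425), where 0.140% of tested genes did so. Dppa2 (-2.88 ± 0.64, adjusted p = 0.0952) and Pou5f1 (-1.11 ± 0.31, adjusted p = 0.199) had values of the same sign without passing. Between RlimKO-labelled and WT male cells 0 of the 10 differed in edgeR and in DESeq2, with 2 at an unadjusted p below 0.05, where 2.61% of tested genes differed. These 3 comparisons share groups and are not independent of one another.

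The Tdgf1 difference between WT female and WT male cells passed in every alternative run, including each of 12 fits without 1 library. For the other 3, the calls depended on which libraries entered. Tdgf1 between RlimKO-labelled and WT female cells missed the threshold in 10 of those 12 fits, with adjusted p up to 0.409, and passed in the 2 without a differentiated male library. Dppa2 between WT female and WT male cells missed it in 6, with adjusted p up to 0.124, and also with only the libraries compared (adjusted p = 0.0677). Pou5f1 missed it in 10, with adjusted p up to 0.245, and also with RLE scaling (0.0527), a 5 CPM filter (0.0572), without Rn45s and Lars2 (0.0588) and with only the libraries compared (0.151). The differentiated male replicates, whose counts stand apart from each other, enter the estimate of spread that all comparisons share. Without male replicate 1 or without male replicate 2, the difference between RlimKO-labelled and WT female cells was called for 5 of the 10 genes either way, where 3.61% and 3.58% of all tested genes were called. These were Tdgf1 (-1.81 and -1.78), Dppa2 (-2.95 and -2.91), Pou5f1 (-1.16 and -1.13) and Dppa5a (-0.85 and -0.82), with a larger loss in RlimKO-labelled cells, and Lin28a (0.77 and 0.80), with a smaller one. Without both libraries of extreme Rn45s share, 5 genes differed between RlimKO-labelled and WT female, 7 between WT female and WT male and 2 between RlimKO-labelled and WT male cells, where 3.07%, 9.37% and 9.98% of all tested genes did. That fit keeps 1 differentiated library of the RlimKO-labelled and of the male line, and it assumes that each varies like the other groups.

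**Figure D3:**
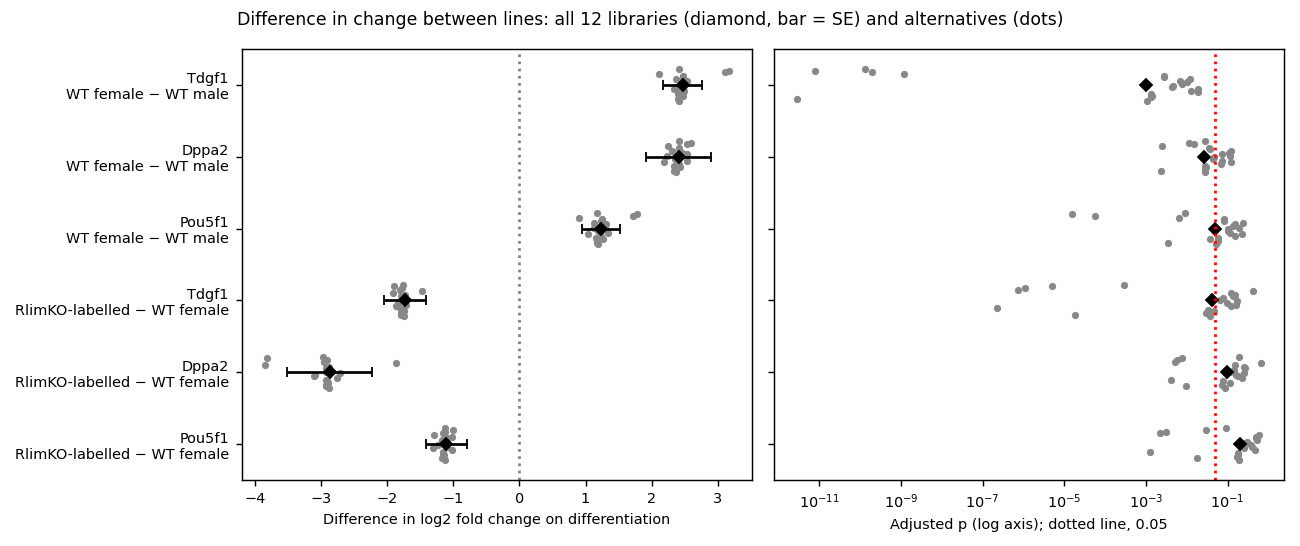
Difference between lines in the log2 change on differentiation (left) and its adjusted p on a log axis (right) for Tdgf1, Dppa2 and Pou5f1, between WT female and WT male cells and between RlimKO-labelled and WT female cells. Diamonds are the fit of all 12 libraries with bars of 1 SE, grey dots are the alternatives, and every dot of Tdgf1 between the WT lines lies below the 0.05 line.

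The levels after differentiation showed the same lines apart. In differentiated cells, RlimKO-labelled libraries were lower than WT female ones for Tdgf1 (-1.88 ± 0.25, adjusted p = 0.00127), Dppa2 (3 against 45 counts, a ratio of 0.0985 with an exact interval of 0.0196 to 0.307, adjusted p = 0.00649) and Pou5f1 (-1.21 ± 0.25, adjusted p = 0.0193), where 1.55% of tested genes were lower. Each of these calls was lost on leaving out some single library: Tdgf1 without RlimKO-labelled replicate 2 (adjusted p = 0.097), Dppa2 without that library (0.275) or without WT female replicate 1, and Pou5f1 without any of the 4 libraries (up to 0.198). WT female libraries were higher than WT male ones for 5 genes, where 4.67% of tested genes were higher: Tdgf1 (2.59 ± 0.24, adjusted p = 2.85e-05), Dppa2 (2.62 ± 0.42, adjusted p = 0.0019), Pou5f1 (1.34 ± 0.23, adjusted p = 0.00258), Gdf3 (2.13 ± 0.58, adjusted p = 0.0343) and Dppa4 (1.10 ± 0.32, adjusted p = 0.0477). The Gdf3 value became 1.03 (adjusted p = 0.635) without WT female replicate 1, and it missed the threshold in 7 of the 12 fits without 1 library. Dppa4 missed it in 8 of those fits, with adjusted p up to 0.319, and in DESeq2 (adjusted p = 0.0788). When only the 4 libraries compared were fitted, where 0.0414% of genes differed in either direction, Tdgf1 (adjusted p = 0.117), Dppa2 (0.144), Pou5f1 (0.172) and Dppa4 (0.287) missed the threshold and Gdf3 did not pass the filter. Without differentiated male replicate 1, 6 genes differed between RlimKO-labelled and WT female, 9 between WT female and WT male and 5 between RlimKO-labelled and WT male cells, where 12.5%, 32.7% and 33.7% of all tested genes differed. Between differentiated RlimKO-labelled and WT male cells 0 of the 10 differed in edgeR and DESeq2, with 3 at an unadjusted p below 0.05, where 11.6% of tested genes differed.

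Levels before differentiation were compared between the lines in the same way. Between undifferentiated RlimKO-labelled and WT female cells 0 of the 10 genes differed in edgeR or DESeq2 and 0 had an unadjusted p below 0.05, where 0.242% of tested genes differed, although all 10 values were negative with a median of -0.24. Undifferentiated RlimKO-labelled cells were lower than WT male cells for Sall4 (-0.81 ± 0.18, adjusted p = 0.0124) and Lin28a (-0.91 ± 0.26, adjusted p = 0.0379), where 5.41% of tested genes were lower. The Sall4 call was lost without any one of the 4 libraries compared, and the Lin28a call in 10 of the 12 fits without 1 library. Between WT female and WT male cells 0 of the 10 passed, with 3 at an unadjusted p below 0.05 (Sall4 -0.56 ± 0.18, adjusted p = 0.0778, Lin28a -0.78 ± 0.26, adjusted p = 0.085, and Utf1 -0.80 ± 0.33, adjusted p = 0.173), where 6.63% of tested genes differed. The summed CPM of the 10 genes was 1323 and 1386 in RlimKO-labelled, 1509 and 1638 in WT female and 1833 and 1853 in WT male cells before differentiation.

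Levels per length, as CPM per kilobase of exon (RPKM), put the genes of each group in order. Before differentiation, Dppa5a led at 326 ± 36.1 RPKM in RlimKO-labelled, 420 ± 90.0 in WT female and 644 ± 65.0 in WT male cells (SD, n = 2 each), followed by Pou5f1 at 160 to 172 RPKM and Tdgf1 at 102 to 113 RPKM, with Dppa2 and Gdf3 lowest at 13.4 to 19.4 RPKM. After differentiation Dppa5a still led at 40.3 ± 2.44 RPKM in RlimKO-labelled, 88.6 ± 8.53 in WT female and 38.3 ± 31.0 in WT male cells. Lin28a was in the second place in RlimKO-labelled (18.2 ± 1.77 RPKM) and WT male cells (18.1 ± 9.68). In WT female cells Tdgf1 (11.2 ± 0.681), Lin28a (11.0 ± 0.0683), Sall4 (10.7 ± 0.383) and Pou5f1 (10.6 ± 0.698) each differed from the next of these 4 by less than the larger of the SDs, and Sox2 followed at 9.71 ± 0.300.

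Other genes of pluripotent cells moved in the same direction. Of 14 naive factor genes, 12 fell in RlimKO-labelled, 13 in WT female and 13 in WT male cells, with medians of -4.28, -3.12 and -3.91 and none higher. Prdm14 and Nr0b1 among these 14 passed the filter only through undifferentiated libraries. Of 18 further genes of pluripotent cells, 18, 17 and 18 fell, with medians of -3.43, -2.96 and -3.04. Zfp296 among these passed the filter only through undifferentiated libraries. For comparison, 21.6% of all tested genes fell in RlimKO-labelled, 22.2% in WT female and 25.4% in WT male cells. Nanog, a naive factor, had 4.78 and 7.32 CPM in differentiated RlimKO-labelled cells, 21.1 and 18.5 CPM in differentiated WT female cells and 6.20 and 12.5 CPM in differentiated WT male cells. It was highest in WT female libraries before differentiation too, with 257 and 255 CPM, against 172 and 190 CPM in RlimKO-labelled and 153 and 152 CPM in WT male cells. Its log2 fold change was -4.81 in RlimKO-labelled, -3.68 in WT female and -3.95 in WT male cells. The 14 naive genes summed to 106 to 123 CPM in differentiated RlimKO-labelled, 208 to 222 CPM in differentiated WT female and 96.2 to 205 CPM in differentiated WT male cells. Before differentiation they summed to 1557 to 1599 CPM, 1732 to 1787 CPM and 1404 to 1423 CPM in that order of lines. Among 10 tested genes of the formative and primed state, 7, 5 and 9 fell and 1, 2 and 1 rose in RlimKO-labelled, WT female and WT male cells. Of all tested genes, 26.4%, 26.5% and 28.7% rose in that order of lines. Of the 10 formative and primed genes, 4 passed the filter only through undifferentiated libraries. The 5 genes outside the set whose profile over the 12 libraries was most like its mean were Gart (Pearson r = 0.995), Zscan10 (0.995), Asns (0.994), Zfp42 (0.994) and Cenpv (0.992). Within the set, the r with this mean, which includes the gene itself, was lowest for Lin28a (0.814), then Sall4 (0.929).

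Summed levels of genes of differentiated cell types were higher in the differentiated libraries. Most of these genes passed the filter only through those libraries, 11 of 13 tested endoderm, 9 of 10 mesoderm and cardiac, 3 of 5 trophoblast and 4 of 10 fibroblast genes, so they are described by the summed level of every gene of a list. The 15 endoderm genes summed to 431 to 486 CPM in differentiated RlimKO-labelled, 733 to 756 CPM in differentiated WT female and 840 to 1066 CPM in differentiated WT male cells, against 11.1 to 14.7 CPM in undifferentiated libraries. The 14 mesoderm and cardiac genes summed to 230 to 240 CPM in differentiated RlimKO-labelled, 221 to 235 CPM in differentiated WT female and 334 to 348 CPM in differentiated WT male cells, against 8.10 to 17.4 CPM in undifferentiated libraries. In differentiated RlimKO-labelled cells Hand1 (111 and 111 CPM) and Hand2 (98.8 and 88.5 CPM) made up most of this sum. Eomes and Tbx6 of the same list had log2 fold changes of -2.52 and -2.30 in that line. In differentiated cells the endoderm and mesoderm sums were thus highest in the male libraries. The 10 trophoblast genes summed to 327 to 334 CPM in differentiated RlimKO-labelled, 236 to 255 CPM in differentiated WT female and 380 to 782 CPM in differentiated WT male cells, against 5.78 to 37.0 CPM in undifferentiated libraries. The keratin genes Krt8 (117 to 271 CPM) and Krt18 (101 to 465 CPM) made up most of this sum in the differentiated libraries. The fibroblast genes summed to 11633 to 11907 CPM in differentiated RlimKO-labelled, 7405 to 8572 CPM in differentiated WT female and 3271 to 9743 CPM in differentiated WT male cells, against 3.50 to 66.9 CPM in undifferentiated libraries. Thy1 of this list passed the filter only through undifferentiated libraries. It had log2 fold changes of -0.09, -0.51 and -3.51 in that order of lines. Germ cells use core pluripotency genes too. The 10 germ cell genes summed to 9.41 to 23.4 CPM in differentiated and 73.7 to 133 CPM in undifferentiated libraries. Of the 8 tested, 3 would have passed the filter on the differentiated libraries alone. Ddx4, a defining germ cell gene, was not among them and was at most 1.58 CPM in any differentiated library. Tfap2c had log2 fold changes of 0.39 in RlimKO-labelled, -2.24 in WT female and -1.92 in WT male cells. The part of these cell types in the levels of the 10 genes was not tested.

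**Figure D4:**
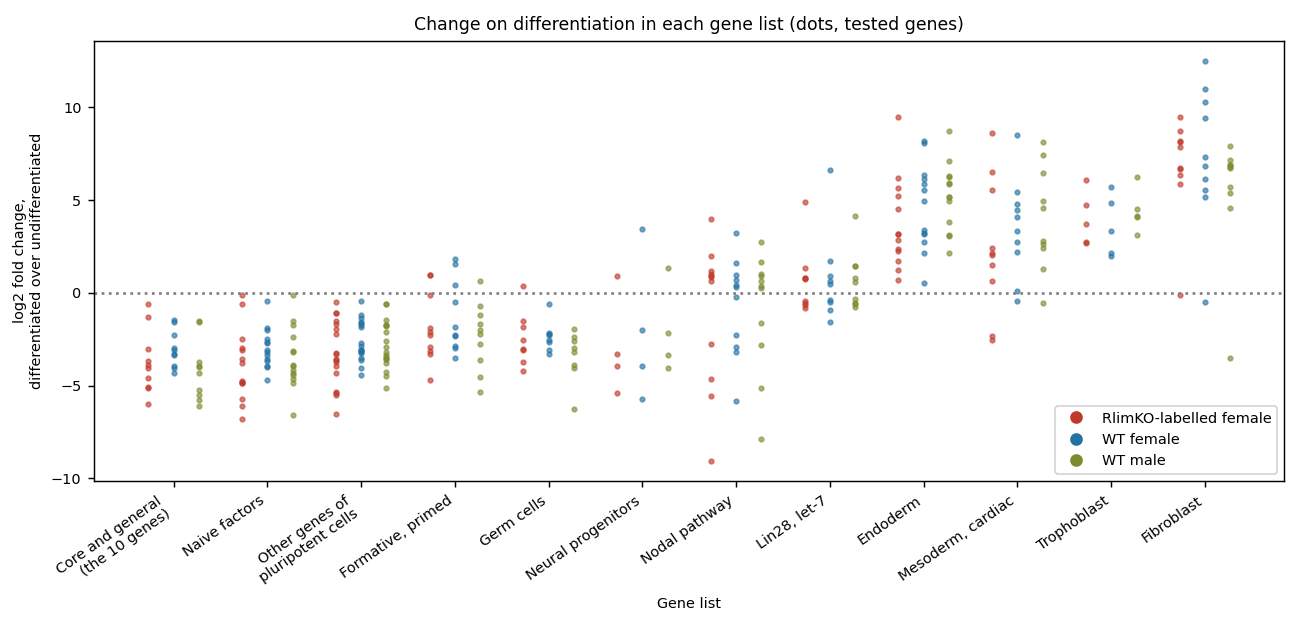
Log2 fold change of differentiated over undifferentiated cells for the tested genes of 12 lists in the 3 lines, 1 dot a gene, with a gene at 0 counts in a group drawn at the bound that 3 counts in that group give. The 10 core and general genes lie below 0 with the other genes of pluripotent cells, and the endoderm, mesoderm, trophoblast and fibroblast genes, most of which passed the filter only through differentiated libraries, lie mostly above 0.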

How the data were processed

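The authors deposited raw HTSeq gene counts, which were used as deposited. Per the labels' protocols, RNA was reverse-transcribed with template switching, amplified and tagmented, a library type that does not mark strand as described and with no molecular identifiers described. Of 187 samples on 2 plates, the plate of each library is not given in the sources used here. Named per the submitters' processing notes are the base-call converter bcl2fastq (2.16.0.10), the aligner TopHat2 (2.0.12), the counter HTSeq (0.6.1p1) and the R package edgeR (3.10.0), and the genome mm10. Aligner settings and annotation are not given in the sources used here.

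The 5 summary lines naming no gene were set aside: 45.4% to 53.3% of reads fell in no gene and 0.241% to 0.926% were ambiguous. Counts were fitted with edgeR 4.0.16 in R 4.3.3 (TMM, default expression filter with a minimum count of 10, quasi-likelihood F test) in 1 model of 6 groups of 2, with 12 comparisons and 12814 genes tested. SE is the log2 fold change over the root of F. P-values measure the spread between libraries, which may be technical, and the smallest exact permutation p of 2 against 2 is 0.33. Intervals and floors cover counting error only. DESeq2 1.42.0, other filters and scalings, leaving out libraries and a replicate block were alternatives, and the fit was tested on simulated counts. Coordinates are from GENCODE M21 and promoters from RefSeq.

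The 10 genes and the 12 other lists were chosen with earlier results of these data known. From each other list up to 4 genes with the smallest p in the mean of the 3 differentiation contrasts could be named, and the 5 most similar profiles were taken by Pearson r of log2 CPM with a pseudocount of 1.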

Additional observations from a re-analysis of the deposited data

Results flagged for a closer look

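Of the 30 differences of change tested for the 10 genes, 4 passed the test of the difference itself and are listed for that reason. Tdgf1 fell further in RlimKO-labelled than in WT female cells, by -1.73 ± 0.31 on the log2 scale (adjusted p = 0.0425). WT female cells lost less than WT male cells of Tdgf1 (2.47 ± 0.30, adjusted p = 0.000984), of Dppa2 (2.41 ± 0.49, adjusted p = 0.0271) and of Pou5f1 (1.23 ± 0.29, adjusted p = 0.0496). The Pou5f1 value missed the threshold with RLE scaling (adjusted p = 0.0527), a 5 CPM filter (0.0572), without Rn45s and Lars2 (0.0588) and with only the libraries compared (0.151), and the Dppa2 value with only the libraries compared (0.0677). The Tdgf1 call between RlimKO-labelled and WT female cells and the Dppa2 and Pou5f1 calls were also lost when some single libraries were left out. Groups of 2 libraries allow no check for outlying samples.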

How the results depend on the processing

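All 29 falls on differentiation passed under every alternative run, and Lin28a in RlimKO-labelled cells became a call under several. Without 1 library at a time, the number of the 10 genes called on differentiation was 9 to 10 in RlimKO-labelled, 10 in WT female and 10 in WT male cells. The difference of change was called for 0 to 5 genes in RlimKO-labelled against WT female, 1 to 6 in WT female against WT male and 0 to 4 in RlimKO-labelled against WT male cells. Undifferentiated levels gave 0, 0 to 4 and 0 to 4 in that order of pairs, and differentiated levels 0 to 6, 3 to 9 and 0 to 5. With no filter the counts were 3 for the difference of change between the female lines, 2 and 4 for undifferentiated WT female and RlimKO-labelled against male cells, and 6, 9 and 1 for differentiated RlimKO-labelled against WT female, WT female against WT male and RlimKO-labelled against WT male cells. With only the libraries compared, the differences of change gave 5 between the female lines and 1 between the WT lines, undifferentiated WT female and RlimKO-labelled against male cells gave 4 and 4, and differentiated RlimKO-labelled against WT female and WT female against WT male cells gave 6 of 8 and 0 of 9 members that passed the filter there. Without both libraries of extreme Rn45s share, the differences of change gave 5, 7 and 2, undifferentiated WT female and RlimKO-labelled against male cells 4 and 5, and differentiated RlimKO-labelled against WT female and against WT male cells 6 and 2. Undifferentiated RlimKO-labelled against male cells gave 0 at a log2 change of at least 1, 1 at a 5 CPM filter and 1 without Rn45s and Lars2. The cause was not tested. Calls over all tested genes also moved with these settings. Over the alternatives other than leaving out 1 library, they went from 20 to 530 genes for the difference of change between the female lines. For undifferentiated WT female and RlimKO-labelled against male cells they went from 536 to 2266 and from 801 to 2817 genes. For the same pairs after differentiation they went from 5 to 2109 and from 10 to 2114 genes. The share of all tested genes is not given for each setting here. These counts alone therefore do not set the 10 genes apart from all tested genes. Over all tested genes, leaving out 1 library moved the differences of change to between 2 and 485, 13 and 1886, and 54 and 2016 genes.

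Same-numbered replicates showed little shared deviation (correlations of -0.0663 to 0.103). Counting error enters these deviations, so a weak pairing would not show, and the main fit used no pairing. With the replicate block, 4 genes of the set differed in change between WT female and WT male cells, where 1.56% of all tested genes did. In that fit 3 differed between undifferentiated RlimKO-labelled and WT male cells, where 10.1% of all tested genes did. Between differentiated WT female and WT male cells 6 differed, where 9.40% of all tested genes did. The gene added in each was Dppa5a (adjusted p = 0.041, 0.038 and 0.024). Where a fit leaves 1 library in a group, that library is assumed to vary like the other groups. Depth limits Dppa2, Dppa4, Utf1 and Gdf3, whose differentiated levels lie near those of 3 counts in some libraries.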

Other observations

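The 2-cell-like state is a rare condition of stem cell cultures that resembles the early embryo, and Dppa2 and Dppa4 are reported to help open its genes. Of 6 such genes in the count table, 2 passed the filter, Zscan4c and Zscan4d. Zscan4c had 6.42 and 5.54 CPM in undifferentiated RlimKO-labelled cells, against 0 and 1.91 CPM in undifferentiated WT female cells and 0 and 0.441 CPM in undifferentiated WT male cells. The 6 genes summed to 14.9 to 15.8 CPM in undifferentiated RlimKO-labelled, 1.58 to 4.77 CPM in WT female and 1.11 to 2.42 CPM in WT male cells. After differentiation they summed to at most 0.531 CPM in RlimKO-labelled, 1.18 CPM in WT female and 0.107 CPM in WT male cells. Neither tested gene would have passed on the differentiated libraries alone, so no test is given for them. Members of this family are near-identical, so their counts are uncertain.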
